A study of Mus musculus with 8 samples.

Results

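The transcripts described here encode 10 enzymes of glycolysis and lactate formation: Pfkl, Aldoa, Tpi1, Gapdh, Pgk1, Pgam1, Eno1, Pkm, Ldha and Ldhb. They were taken by gene name from a table of 54532 genes, and where a name had several rows the row with the largest mean count was used. The set was chosen by the Gapdh counts of these same libraries, which earlier results had shown to be high in 2 libraries of treated retina, so the difference between treated and control libraries is given for the 10 genes as a description, with no test. The samples were 4 retina libraries labelled sIVs, for small intracellular vesicles, and 4 control libraries labelled PBS, for phosphate-buffered saline. All 8 came from rd10 mice, which carry a mutation in the rod phosphodiesterase gene Pde6b and lose rods and then cones, so the PBS libraries are of degenerating retina too. Untreated and wild-type retina were not analysed here. Age, sex, dose, route and the time after treatment are not given in the sources used here, and neither is it stated whether a library came from 1 animal. The labels number the sIVs libraries 2 to 5 and the PBS libraries 1 to 4 and call them replicate biosamples. The spread reported below is the spread between these libraries, and how far it is technical is not known. Y-linked genes were counted in sIVs library 5 and PBS library 4 only, so those came from other animals than the rest of their groups. Each library held 15039385 to 16989737 counts in the sIVs group and 14640235 to 15948291 counts in the PBS group.

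Glycolysis splits glucose into pyruvate in the cytosol. Photoreceptors run it at a high rate and reduce most of the pyruvate to lactate even where oxygen is present, which is known as aerobic glycolysis; the Hk2, Pkm and Ldha products are the enzymes usually named for it. Gapdh encodes glyceraldehyde-3-phosphate dehydrogenase, which oxidises the triose phosphate and makes NADH, and its transcript is a common reference in PCR. The mouse genome also carries many processed pseudogenes of Gapdh, copies made by reverse transcription of its mRNA.

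The copies bear on every Gapdh value in these libraries, so their sequences are given before the counts. Gapdh lies on chromosome 6 of mm10 (GRCm38), at chr6:125161715-125166467 on the minus strand. Its principal transcript in the GENCODE M21 annotation, Gapdh-203, has 1420 bases, of which 999 at positions 241 to 1239 are coding. Each of the 950 windows of 50 bases in that coding sequence was also found, letter for letter, in a transcript of another annotated gene. Across the whole transcript the share was 82.5% of 1371 windows, and 218 other genes held at least 1 of them. The most widely shared coding window, on the minus strand of an exon at chr6:125162898-125162947, was held by 83 other genes:
Gapdh, most shared window: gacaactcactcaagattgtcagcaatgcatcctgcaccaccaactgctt
The closest copy was Gm7336, a processed pseudogene at chr7:51746647-51747878, which held 1131 of the 1371 windows and matched a run of 1090 bases from position 198 to position 1287 without a difference. The pair is shown by 60 bases at the middle of the coding sequence, which span an intron in Gapdh (chr6:125162699-125162892), to let a reader see that such a stretch cannot tell the gene from the copy:
Gapdh: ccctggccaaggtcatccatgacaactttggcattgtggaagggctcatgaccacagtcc
Gm7336: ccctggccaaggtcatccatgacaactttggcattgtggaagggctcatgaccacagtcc

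Copies of this kind were not particular to Gapdh. For Pgk1 and Pgam1 every coding window of 50 bases, and every one of 150 bases, was found in another gene as well, as was the case for Gapdh. Eno1 shared 83.3% of its 50-base coding windows and 59.3% of its 150-base ones. Pkm shared 52.9%, Ldhb 35.6%, Ldha 31.0%, Aldoa 16.8% and Tpi1 13.7% of 50-base coding windows; at 150 bases Pkm shared 4.57% and the other 4 shared none. Pfkl shared none at either size. What set the Gapdh transcript apart was the number of genes involved: 218 other genes held a 50-base window of it, against 1 to 15 for each of the other 9. The midpoint stretches of 4 members, each above its closest copy among those searched, show the range, with capitals at the bases where gene and copy differ:
Pgk1: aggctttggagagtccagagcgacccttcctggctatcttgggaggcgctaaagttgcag
Pgk1-rs7: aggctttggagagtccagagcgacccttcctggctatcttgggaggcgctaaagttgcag
Pkm: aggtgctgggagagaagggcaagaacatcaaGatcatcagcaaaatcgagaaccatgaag
Gm6560: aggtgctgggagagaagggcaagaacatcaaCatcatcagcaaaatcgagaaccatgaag
Ldha: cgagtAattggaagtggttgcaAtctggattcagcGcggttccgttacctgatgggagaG
Gm5452: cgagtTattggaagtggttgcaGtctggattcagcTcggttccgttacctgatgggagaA
Aldoa: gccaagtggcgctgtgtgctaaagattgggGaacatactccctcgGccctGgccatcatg
Aldoart1: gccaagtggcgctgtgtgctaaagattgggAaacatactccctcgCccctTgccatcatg
The Pgk1 stretch (chrX:106197916-106199660, plus strand, across an intron) did not differ from that of Pgk1-rs7. The Pkm stretch (chr9:59670668-59670727, plus strand) differed from Gm6560 at 1 base, the Aldoa stretch (chr7:126796640-126796699, minus strand) from Aldoart1 at 3, and the Ldha stretch (chr7:46850935-46850994, plus strand) from Gm5452 at 4. The sources used here do not say how the authors' counting treated reads that match several genes, so counts of Gapdh, Pgk1, Pgam1 and Eno1 are uncertain as to which copy the reads came from.

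**Figure D1:**
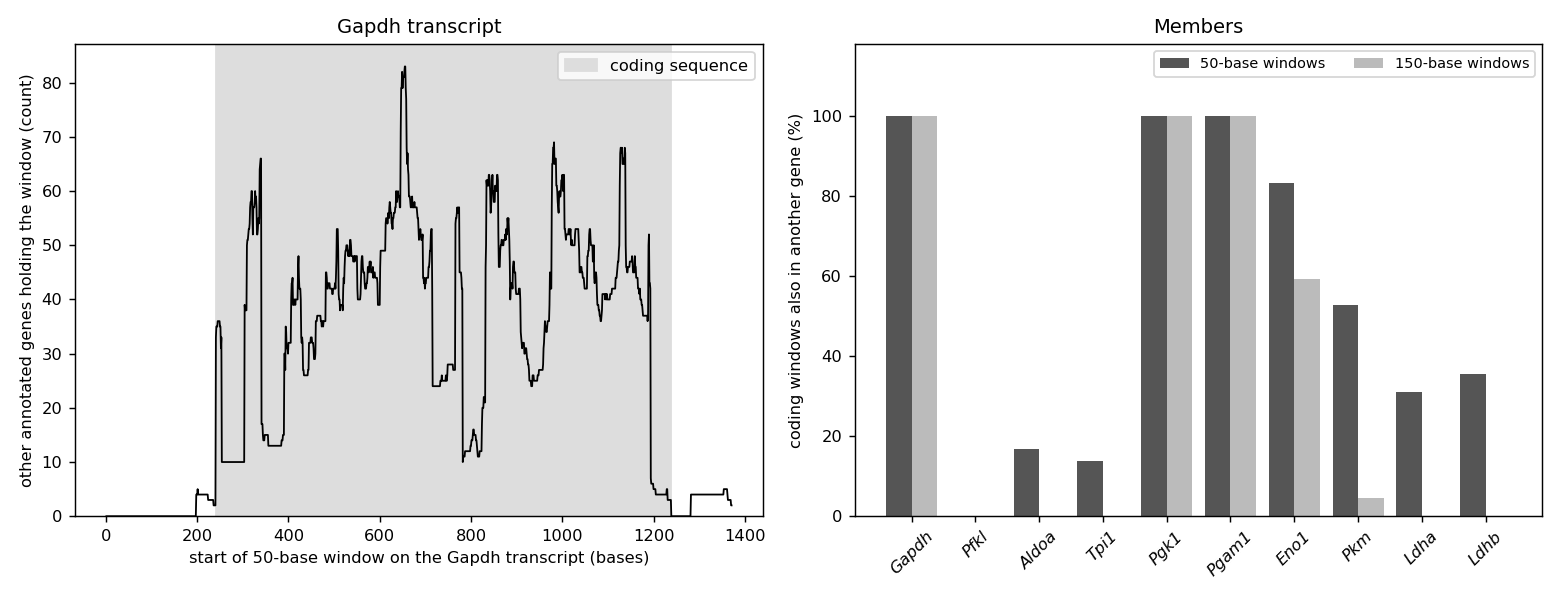
Left, number of other annotated genes that hold each 50-base window of the Gapdh transcript, by the window's start in bases, with the coding sequence shaded; the highest point is 83 genes. Right, percentage of coding windows of 50 bases (dark) and 150 bases (light) found in another gene for each of the 10 enzymes; Gapdh, Pgk1 and Pgam1 reach 100% at both sizes and Pfkl is at 0.

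Gapdh was high in sIVs libraries 2 and 5 and nowhere else. In CPM, that is counts scaled to a fixed library size with the trimmed mean of M-values (TMM), it stood at 147, 28.3, 24.7 and 320.1 CPM in sIVs libraries 2, 3, 4 and 5, against 32.8, 30.1, 29.9 and 29.4 CPM in PBS libraries 1, 2, 3 and 4. Set against the PBS mean, those 4 sIVs libraries were at 4.81, 0.925, 0.808 and 10.5 times its level. The sIVs values thus lay on both sides of the PBS range, 2 above and 2 below all of it, and within sIVs the highest exceeded the lowest 13-fold, compared with 1.12-fold within PBS. The raw counts behind them were 2196, 456, 448 and 5377 in sIVs libraries and 511, 470, 431 and 414 in PBS libraries. The fitted log2 fold change was 2.09, or 4.25-fold, on edgeR's scale, and 1.12 without sIVs library 5. On the log2(FPKM + 0.1) and log2(FPKM + 1) scales limma gave 1.31 and 1.25. Without sIVs libraries 3 and 4 edgeR gave 2.93, and without sIVs libraries 2 and 5 it gave -0.21.

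No other gene shared the pattern at that size. Of 17725 genes with enough counts to be tested, 1 gene, Gapdh itself, was at least 2-fold above every other library in both sIVs 2 and sIVs 5. The count is a description, since those 2 libraries were picked by the values of Gapdh. The 5 protein-coding genes nearest to its profile, among 5136 with a mean of at least 50 CPM, were Junb, Lrrc2, Tead3, Klhl29 and R3hcc1l, by the root mean square difference of log2 CPM from the PBS mean over the 8 libraries. Even the nearest, Junb, an AP-1 transcription factor gene, differed from Gapdh by 1.01 log2 units on that measure and had ratios to the PBS average of 1.66, 1.95, 1.72 and 3.30 in sIVs libraries 2, 3, 4 and 5. Of the genes beside it on the chromosome, none came near its ratios. Nop2, a ribosome biogenesis gene 16961 bases away, was at 33.6, 31.2, 32.7 and 40.1 CPM in sIVs libraries, against 29.6, 28.8, 30 and 28.5 CPM in PBS libraries. All 4 of its sIVs values lay above the PBS range, with libraries 5 and 2 highest. Ncapd2, a condensin subunit gene whose nearer end lies 1539 bases away, was at 25.5, 30.6, 27.4 and 27.4 CPM in sIVs libraries and 29.3, 29.7, 25.6 and 26.7 CPM in PBS libraries. Iffo1, on the plus strand and overlapping the end of Gapdh by 68 bases, was at 90.6, 79.5, 72.5 and 103.5 CPM in sIVs libraries and 87.9, 92.3, 90.8 and 94.9 CPM in PBS libraries. Iffo1 was highest in sIVs library 5, but library 2 of that group was inside the PBS range and libraries 3 and 4 below it. The library preparation marked strand, and whether the counting used it is not given in the sources used here. By the same measure the mean profile of all 10 members, which Gapdh dominates, lay nearest to Hdgfl2, Rpl10a, Josd1, Pmvk and Arfip2, with differences of 0.0444 to 0.0645 log2 units.

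The pseudogenes that share Gapdh sequence stayed level. Gm7336 had 425, 388, 584 and 533 counts in sIVs libraries, against 388, 535, 398 and 493 in PBS libraries. Summed over the 217 sharing genes present in the table, 212 of them annotated as pseudogenes, the counts were 2815, 2593, 2975 and 3165 in sIVs libraries and 2990, 2911, 2888 and 2677 in PBS libraries. The copies together held 1.28, 5.69, 6.64 and 0.589 times the counts of Gapdh in sIVs libraries, against 5.85, 6.19, 6.70 and 6.47 times in PBS libraries. Whether reads moved between the gene and its copies was not tested, since the deposited tables hold 1 number per gene.

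**Figure D2:**
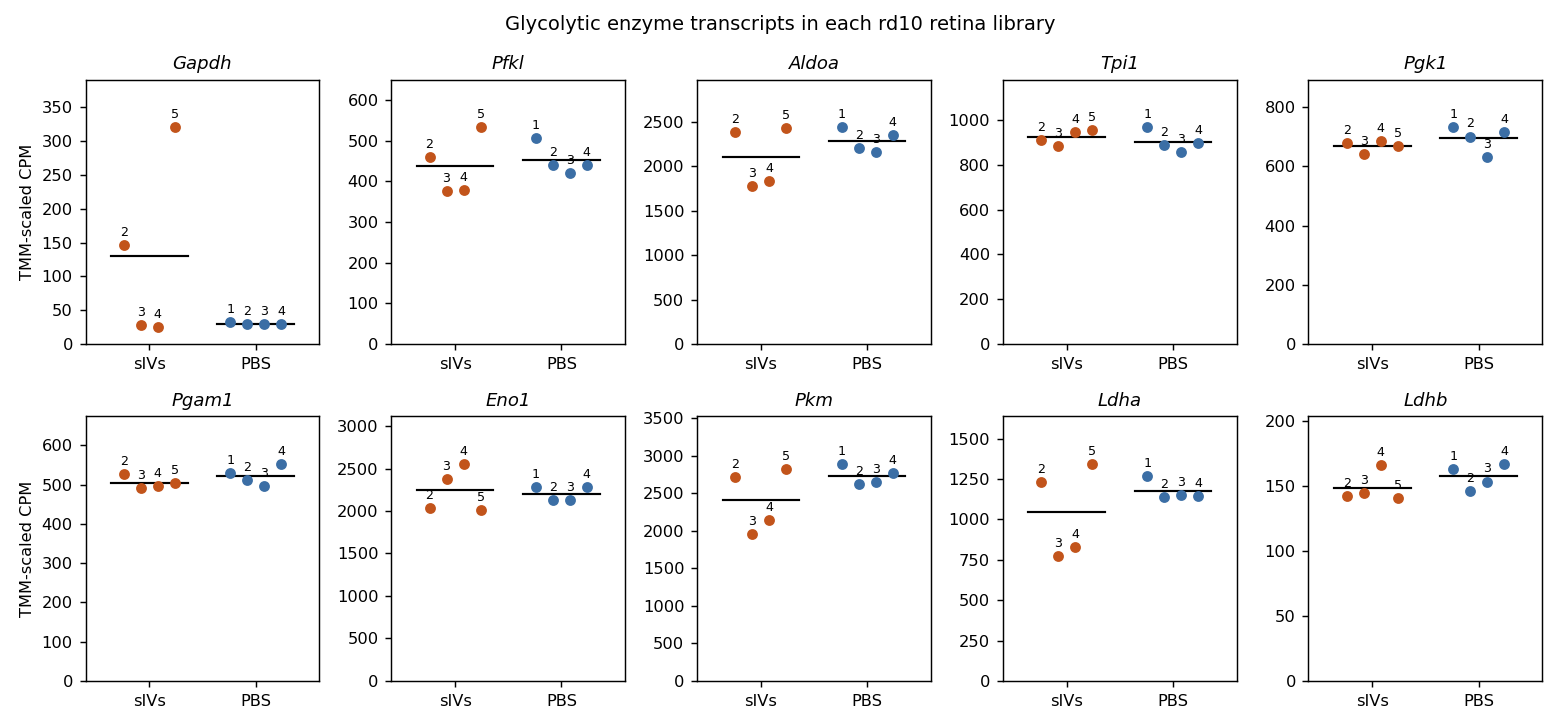
TMM-scaled CPM of each of the 10 transcripts, with sIVs libraries on the left and PBS libraries on the right of each panel; points carry the library number and lines mark group means. Gapdh is at 147 and 320.1 CPM in sIVs libraries 2 and 5 and between 24.7 and 32.8 CPM in the other 6 libraries, while Pkm, Ldha and Aldoa are lowest in sIVs libraries 3 and 4.

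The Gapdh level was also out of step with its pathway in PBS retina; its counts there served as the baseline when the set was chosen, so the order is given as a description. Per kilobase, in the FPKM the authors deposited, Aldoa averaged 784 ± 43.6, Pkm 545 ± 24.1, Eno1 409 ± 16.3, Ldha 355 ± 19.3, Tpi1 327 ± 16.9, Pgk1 309 ± 19.2, Pgam1 285 ± 12.2, Ldhb 100.3 ± 5.8, Pfkl 67.5 ± 5.63 and Gapdh 7.38 ± 0.39 FPKM (SD, n = 4 PBS libraries). In that order the ranges of Ldha and Tpi1, of Tpi1 and Pgk1, and of Pgk1 and Pgam1 overlapped over the 4 libraries, and all other neighbours were apart. Gapdh was thus the lowest of the 10, and Tpi1, the enzyme gene one step before it, stood 44.4 ± 1.12 times higher. In sIVs libraries 2, 3, 4 and 5 that ratio of Tpi1 to Gapdh FPKM was 9.33, 46.9, 57.5 and 4.47, so Gapdh remained below Tpi1 even where it was highest. The deposited gene length of Gapdh, 4133 bases, is 2.91 times the length of Gapdh-203, which lowers its FPKM; with the principal transcript's length for every gene it was still last, at 20.96 ± 1.14 on that scale.

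Summing the isozymes of each step did not fill the gap. Gapdhs, the sperm form of the enzyme, brought the step to 39.7, 10.2, 9.83 and 81.9 FPKM in sIVs libraries and 10.98, 12.3, 11.45 and 11.05 FPKM in PBS libraries. The triosephosphate isomerase step before it averaged 335.5 ± 11.9 FPKM in sIVs libraries and 327 ± 16.9 FPKM in PBS libraries, and the phosphoglycerate kinase step after it 297.5 ± 8.92 FPKM in sIVs libraries and 309 ± 19.2 FPKM in PBS libraries (SD, n = 4 each). Those flanking steps thus differed between the groups by less than their spread in PBS retina. Pgk1 and Pgam1, with coding sequence as fully shared as that of Gapdh, counted 631 to 731 and 492 to 552 CPM over the 8 libraries. Their windows were held by 5 and 4 other genes, over 68.0% and 41.5% of the transcript, against 218 genes and 82.5% for Gapdh. The part of sequence sharing in the Gapdh level was not tested.

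**Figure D3:**
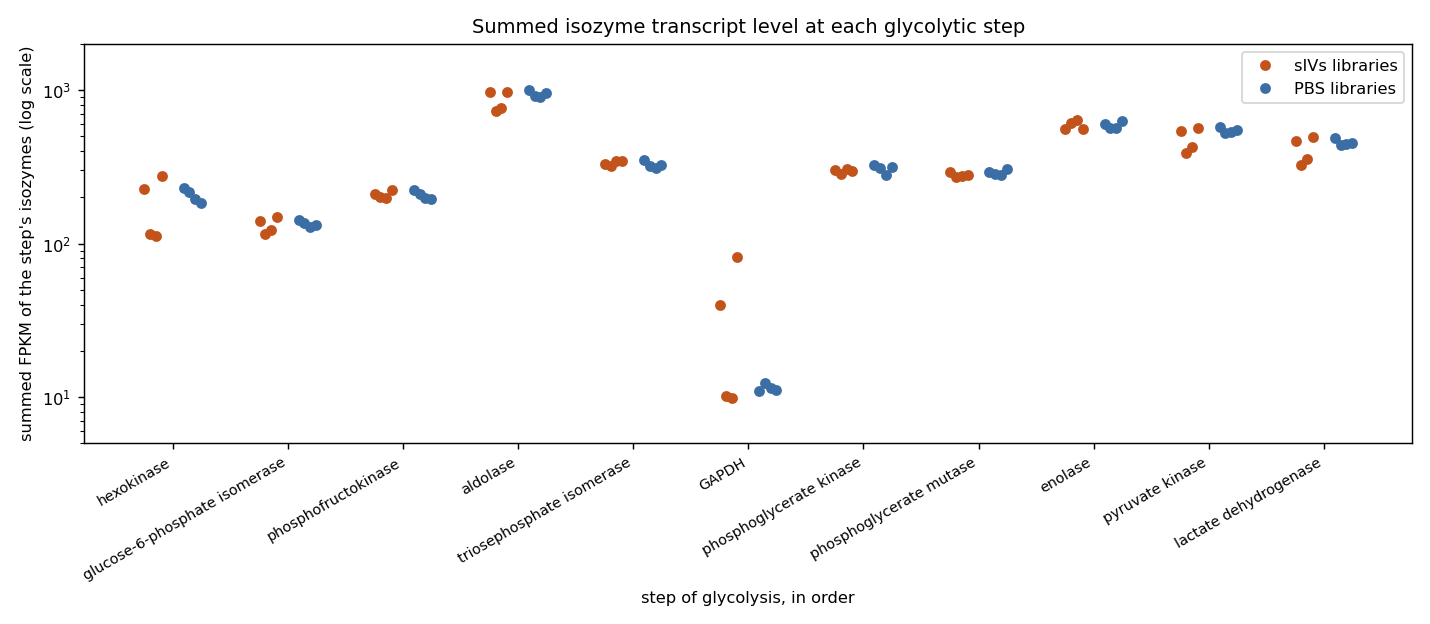
Summed FPKM of the isozymes of each of 11 steps from hexokinase to lactate dehydrogenase, on a log axis, with sIVs libraries left of PBS libraries at each step. The GAPDH step lies between 9.83 and 81.9 FPKM in sIVs libraries and between 10.98 and 12.3 FPKM in PBS libraries, with triosephosphate isomerase before it and phosphoglycerate kinase after it above 281 FPKM in every library.

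The other 9 enzymes did not follow Gapdh upward. Of the 10 fitted log2 fold changes of sIVs over PBS, 3 were positive and 7 negative, with a median of -0.05, beside a median of -0.01 and 49% positive over all 17725 genes tested. All 10 members passed the filter on low counts. None had all 4 sIVs libraries above, or all 4 below, the PBS libraries, a pattern held by 4.42% and 3.36% of all tested genes. Since the same contrast chose the set, nothing is read from these counts.

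Early in the pathway, Pfkl encodes the liver-type subunit of phosphofructokinase, which commits sugar to glycolysis. It was at 459, 375, 379.7 and 532 CPM in sIVs libraries, against 505, 441, 420 and 440 CPM in PBS libraries. Libraries 3 and 4 of the sIVs group lay below the PBS range and library 5 above it. Aldoa, the aldolase that splits fructose bisphosphate, showed 2386, 1774, 1831 and 2433 CPM in sIVs libraries and 2436, 2206, 2156 and 2349 CPM in PBS libraries. Here too the low values were those of libraries 3 and 4, and the other 2 sIVs libraries were inside the PBS range. A second row named Aldoa, just upstream at chr7:126800790-126809108, held only 108 to 281 counts in sIVs libraries and 212 to 338 counts in PBS libraries. Tpi1, which interconverts the triose phosphates, was level, at 912, 883, 946 and 954 CPM in sIVs libraries and 966, 888, 857 and 897 CPM in PBS libraries.

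Pgk1 and Pgam1 were steady. Pgk1, whose product makes the first ATP of the pathway, stood at 677, 641, 685 and 668 CPM in sIVs libraries and 731, 699.9, 631 and 716 CPM in PBS libraries. Pgam1, the phosphoglycerate mutase gene, stood at 526, 492, 497 and 505 CPM in sIVs libraries and 529.7, 511, 497 and 552 CPM in PBS libraries. Their highest library exceeded the lowest 1.16-fold and 1.12-fold, and the groups overlapped for both. Eno1, which encodes the broadly expressed enolase, went the other way from Aldoa across libraries: it was at 2040, 2374, 2552 and 2009 CPM in sIVs libraries and 2280, 2125, 2124 and 2286 CPM in PBS libraries. Its sIVs libraries 3 and 4 were above every PBS library and libraries 2 and 5 below every one, which cancelled to a log2 fold change of 0.03.

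Of the 10 members, Ldha and Pkm had the widest spread after Gapdh, at 1.74-fold and 1.48-fold between the highest and lowest library. Pkm, the pyruvate kinase gene of retina, was at 2716, 1956, 2137 and 2828 CPM in sIVs libraries, against 2887, 2620, 2653 and 2768 CPM in PBS libraries, a log2 fold change of -0.18. Ldha, whose product favours lactate formation, was at 1235, 774, 829.6 and 1343 CPM in sIVs libraries, against 1271, 1141, 1151 and 1148 CPM in PBS libraries, a log2 fold change of -0.17. Both were below the whole PBS range in sIVs libraries 3 and 4 only. Ldhb, the lactate dehydrogenase subunit that favours pyruvate, was at 142, 145, 166 and 141 CPM in sIVs libraries and 163, 146, 154 and 167 CPM in PBS libraries. As a share of lactate dehydrogenase FPKM, Ldha was 80.4%, 71.8%, 70.3% and 81.9% in sIVs libraries, against 78.7%, 78.7%, 78% and 76.5% in PBS libraries. The balance thus lay on both sides of the PBS range: further towards Ldhb in sIVs libraries 3 and 4, and further towards Ldha in libraries 2 and 5. In all, the 10 transcripts took 1.1%, 1.01%, 1.07% and 1.16% of counts in sIVs libraries and 1.15%, 1.06%, 1.05% and 1.09% in PBS libraries.

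**Figure D4:**
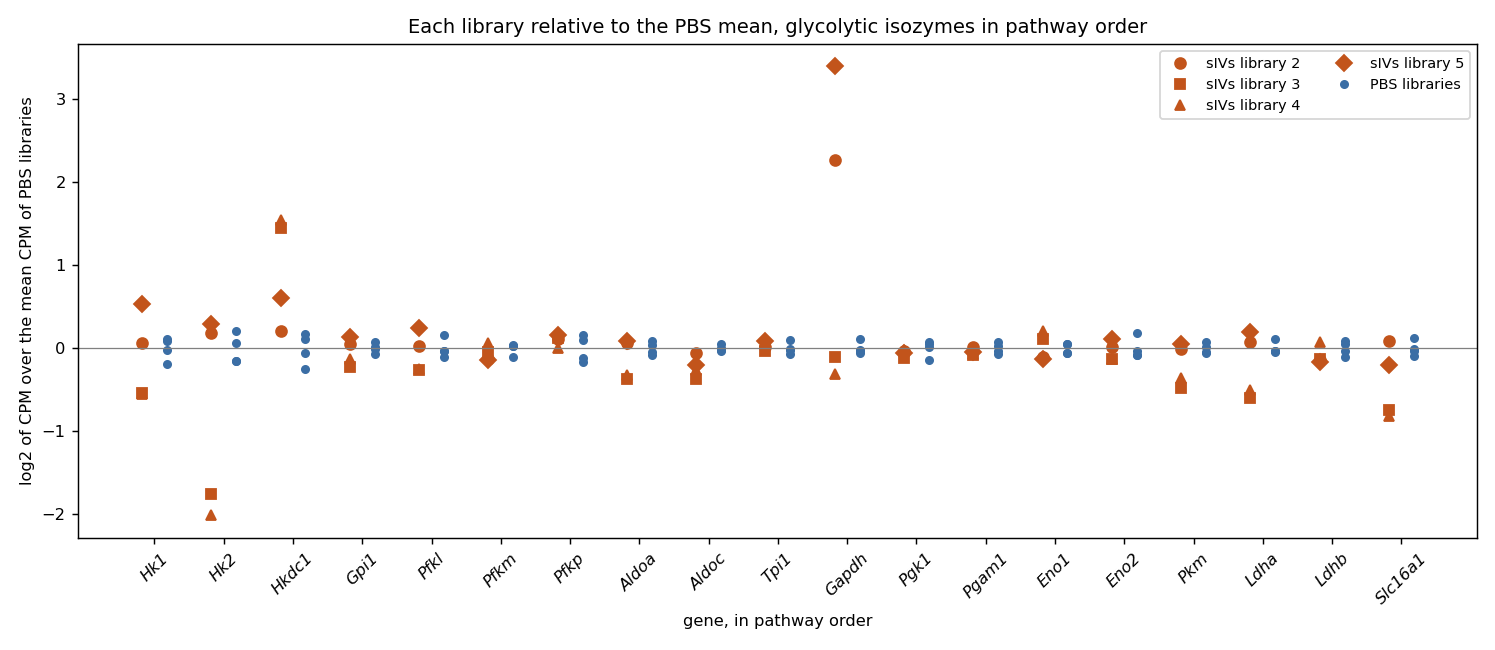
Log2 of each library's CPM over the mean CPM of the PBS libraries for glycolytic isozymes and the lactate transporter Slc16a1, in pathway order, with sIVs libraries (separate symbols) left of PBS libraries. Gapdh in sIVs libraries 2 and 5 stands above all other points, and Hk2 in sIVs libraries 3 and 4 (172 and 144 CPM) stands lowest.

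The libraries in which Aldoa, Pkm and Ldha were low were also those with few rod transcripts. The summed CPM of 15 rod markers was 38760, 8898, 8401 and 30950 in sIVs libraries, against 36590, 34100, 37630 and 41320 in PBS libraries, and none of the 15 was at 0. Summed over 11 reactive glia markers it was 968, 2009, 2150 and 1438 CPM in sIVs libraries and 939, 925, 646 and 435 CPM in PBS libraries. Over 14 microglia and macrophage markers the sums were 258, 509.5, 619 and 194 CPM in sIVs libraries and 315, 264, 322 and 205 CPM in PBS libraries. Rod sums were thus higher in sIVs libraries 2 and 5, where Gapdh was high, than in libraries 3 and 4, while the PBS libraries had rod sums of 34100 to 41320 CPM and Gapdh near 30.5 CPM. Fewer cells of a type and less RNA per cell cannot be told apart in whole retina, and the part of cell makeup in the values of these enzymes was not tested. Transcripts of muscle, which also runs glycolysis at a high rate, were near 0: 12 skeletal muscle markers summed to 7.35 to 8.99 CPM in sIVs libraries and 7.41 to 9.35 CPM in PBS libraries. Y-linked genes such as Ddx3y were counted in sIVs library 5 and PBS library 4 only (1558 and 1283 counts, against 0 or 1 elsewhere), and Gapdh differed between those libraries as given above.

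Among 92 other genes of glucose metabolism, 83 had enough counts to be tested and none passed. edgeR's quasi-likelihood test with Benjamini-Hochberg adjustment over all 17725 genes called 0 of the 83, as it called 0% of all genes. At an unadjusted p below 0.05 it gave 10 of the 83 as higher and 1 as lower in sIVs retina, where 9.61% and 5.63% of all genes were higher and lower. DESeq2 called 3 as higher and none as lower, beside 2.52% and 0.502% of all genes. Without sIVs library 2, edgeR called 9. The 7 higher ones were Myc (adjusted p = 0.0107), Hkdc1 (0.0128), Pgls (0.0136), Pfkfb3 (0.0141), Slc2a3 (0.0356), Gys1 (0.0427) and Pgm1 (0.0465), and the 2 lower ones Pdp2 (0.0268) and Gckr (0.0377), a glucokinase regulator gene named after its values were seen.

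At the entry step, Hk2, the inducible hexokinase that photoreceptors use, was at 659.8, 172, 144 and 711 CPM in sIVs libraries, against 669.5, 607, 522.5 and 522.5 CPM in PBS libraries. Its log2 fold change was -0.46 ± 0.47 (SE; adjusted p = 0.675, edgeR), with sIVs libraries 3 and 4 below the whole PBS range and libraries 2 and 5 in its upper part or above it. Hk1, the broadly expressed hexokinase, was at 922, 607, 600.3 and 1272 CPM in sIVs libraries and 949, 937, 871 and 773 CPM in PBS libraries (adjusted p = 0.932, edgeR). Hkdc1, which encodes a hexokinase domain protein, was at 23.8, 56.2, 60.1 and 31.3 CPM in sIVs libraries, all above the 23.1, 22.2, 19.7 and 17.3 CPM of PBS libraries. Its log2 fold change of 1.06 ± 0.27 missed edgeR's threshold (adjusted p = 0.173) and passed that of DESeq2 (adjusted p = 0.0102). In FPKM, Hk2 made up 48.9%, 24.9%, 21.6% and 43.1% of hexokinase transcripts in sIVs libraries and 48.7%, 46.5%, 44.6% and 47.5% in PBS libraries.

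Other isozymes of the pathway gave no call. Gpi1, the glucose-6-phosphate isomerase gene, averaged 848 ± 96.7 CPM in sIVs libraries and 869 ± 35 CPM in PBS libraries. Pfkm and Pfkp, the muscle and platelet phosphofructokinase subunits, averaged 182 ± 12.2 and 1184 ± 53.8 CPM in sIVs libraries, against 189.9 ± 9.16 and 1104 ± 124 CPM in PBS libraries. The brain aldolase Aldoc averaged 457 ± 41.8 CPM in sIVs libraries and 532 ± 15.3 CPM in PBS libraries (SD, n = 4 each). All 4 sIVs values of Aldoc lay under the PBS range, with a log2 fold change of -0.22 ± 0.08 and an adjusted p of 0.277 (edgeR). The neuronal enolase Eno2 averaged 633 ± 50.9 CPM in sIVs libraries and 646 ± 60.1 CPM in PBS libraries. Adpgk, an ADP-dependent glucokinase gene, had a log2 fold change of 0.25 ± 0.08 (adjusted p = 0.234, edgeR).

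Transport genes gave no call. Slc2a1, the main glucose transporter of retina, was at 249.7, 257, 246 and 386 CPM in sIVs libraries and 304, 265, 291 and 297 CPM in PBS libraries. Its library 5 lay above the PBS range and the other 3 sIVs libraries below it. Slc16a1, a lactate transporter gene, was at 219, 123, 117 and 180.2 CPM in sIVs libraries and 206, 202, 225 and 194 CPM in PBS libraries (log2 fold change -0.37 ± 0.18, adjusted p = 0.373, edgeR). The neuronal glucose transporter Slc2a3 had a log2 fold change of 0.31 ± 0.13 (adjusted p = 0.298, edgeR). Bsg, which encodes the transporter chaperone basigin, averaged 747.5 ± 46.3 CPM in sIVs libraries and 782 ± 52 CPM in PBS libraries.

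Genes that control the flux gave no call by edgeR either. Myc, a transcription factor gene known to raise glycolytic transcripts, was at 3.21, 8.80, 4.85 and 9.58 CPM in sIVs libraries, against 2.64, 1.15, 1.11 and 1.14 CPM in PBS libraries. All 4 sIVs values exceeded all PBS values, at a low level, and the log2 fold change of 2.12 ± 0.42 did not pass (adjusted p = 0.153, edgeR) though DESeq2 called it (adjusted p = 0.00015). Pfkfb3, which makes the activator of phosphofructokinase, was at 63.8, 101.4, 86.4 and 81.0 CPM in sIVs libraries and 65.6, 63.2, 63.2 and 58.9 CPM in PBS libraries (adjusted p = 0.198, edgeR). Hif1a, the oxygen-regulated factor subunit, averaged 601 ± 70.4 CPM in sIVs libraries and 633 ± 17.5 CPM in PBS libraries. Of 17 tested hypoxia-inducible genes outside glycolysis edgeR called 0, with 4 higher and 0 lower at an unadjusted p below 0.05 and 1 called higher by DESeq2, beside the same 9.61%, 5.63% and 2.52% of all genes. That gene was Adm, for adrenomedullin, at 2.74, 12.1, 5.84 and 3.16 CPM in sIVs libraries and 1.09, 1.09, 2.29 and 0.781 CPM in PBS libraries (adjusted p = 0.167 by edgeR and 0.00235 by DESeq2). Vegfa, the vascular growth factor gene, averaged 284.5 ± 24.9 CPM in sIVs libraries and 230.1 ± 19.8 CPM in PBS libraries (adjusted p = 0.196, edgeR). In 4 of those 17 hypoxia-inducible genes all sIVs libraries lay above all PBS libraries, and in 0 all lay below. The shares over all tested genes were 4.42% and 3.36%.

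Branches that leave glycolysis gave no call by edgeR with all 8 libraries. Pdp2, Pgls, Pgm1 and Gys1 were called without sIVs library 2, as given above. Of the 14 genes for pyruvate entry to mitochondria 2 had a positive and 12 a negative fold change, and none reached an unadjusted p below 0.05, which 9.61% of all genes did as higher and 5.63% as lower. The pyruvate dehydrogenase genes Dlat and Pdhb had log2 fold changes of -0.12 ± 0.06 and -0.17 ± 0.11 (adjusted p = 0.368 and 0.498, edgeR), and the phosphatase gene Pdp2 one of -0.33 ± 0.15 (adjusted p = 0.347, edgeR). In the pentose phosphate branch 7 of 8 tested genes were positive and 1 negative, with a median log2 fold change of 0.15, beside 49% positive and a median of -0.01 over all genes. In 2 of the 8 all sIVs libraries lay above all PBS libraries, as in 4.42% of all genes. Its lactonase gene Pgls was at 33.95, 43.7, 40.4 and 40.6 CPM in sIVs libraries, all above the 31.8, 28.4, 31.7 and 29.1 CPM of PBS libraries (log2 fold change 0.39 ± 0.09, adjusted p = 0.167 by edgeR and 0.0211 by DESeq2). Pgd, a dehydrogenase of the same branch, had a log2 fold change of 0.20 ± 0.10 and Tkt, the transketolase gene, one of 0.03 ± 0.08 (adjusted p = 0.389 and 0.904, edgeR). In the list for gluconeogenesis and glycogen, Pgm1, a phosphoglucomutase family gene, had a log2 fold change of 0.45 ± 0.15 (adjusted p = 0.226, edgeR). It averaged 5.42 FPKM in sIVs libraries and 3.97 FPKM in PBS libraries. Pgm2, a more abundant gene of that family named after its values were seen, averaged 30.2 and 28.8 FPKM. The glycogen synthase gene Gys1 had a log2 fold change of 0.29 ± 0.11 (adjusted p = 0.259, edgeR). The kinase gene Gsk3b averaged 242 ± 4.44 CPM in sIVs libraries and 261 ± 11.3 CPM in PBS libraries.

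As a reference transcript, Gapdh was the most variable of 18 genes compared. The ratio of the highest to the lowest of the 8 libraries in CPM was 13 for Gapdh, which fixed the choice of the set. Among 17 other genes in common use for this purpose, the smallest ratios were those of Ywhaz (1.14), Pgk1 (1.16) and Sdha (1.17), and the largest were those of B2m (4.46) and Gusb (2.82). B2m, a light chain of class I antigen presentation, was at 102.5, 206, 374 and 91.9 CPM in sIVs libraries and 83.8, 90.4, 139 and 111 CPM in PBS libraries, so its high libraries were 3 and 4, where Gapdh was lowest (adjusted p = 0.347, edgeR). Gusb, a lysosomal enzyme gene, was likewise at 15.97, 40.7, 40.9 and 17.9 CPM in sIVs libraries and 17.99, 18.7, 17.3 and 14.5 CPM in PBS libraries (adjusted p = 0.289, edgeR). Within the PBS group alone, Gapdh varied 1.12-fold, less than Ywhaz at 1.14-fold.

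**Figure D5:**
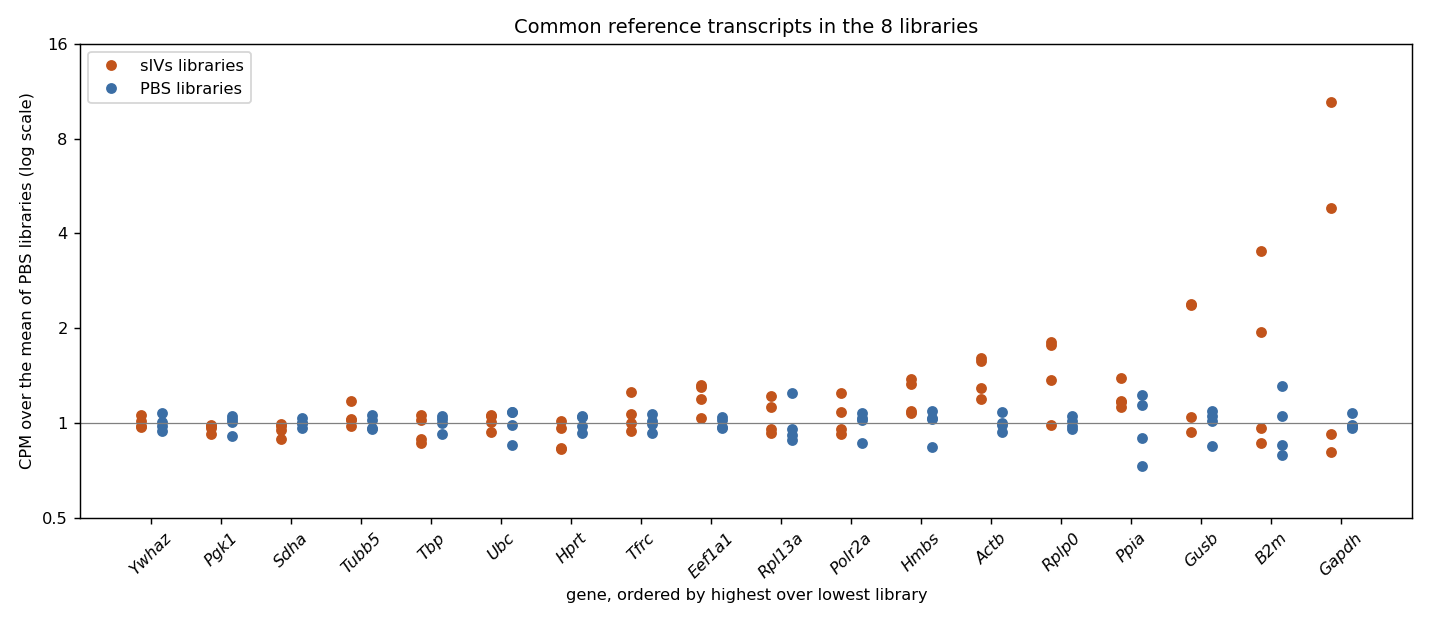
CPM over the mean of the PBS libraries, on a log axis, for Gapdh and 17 other transcripts in common use as references, with sIVs libraries left of PBS libraries and genes ordered by the ratio of the highest to the lowest library. Ywhaz, Pgk1 and Sdha lie close to 1 in all 8 libraries, and Gapdh in sIVs libraries 2 and 5 lies at 4.81 and 10.5.

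The promoters of the members were read for 3 short motifs in the 250 bases before each RefSeq start (GRCm38.p6), searched on both strands. ACGTG, a form of the core bound by hypoxia-inducible factors, was found in 16.6% of 32851 promoters. Other forms of that core, such as GCGTG, which occurs in the Gapdh stretch printed below, were not searched. The E-box CACGTG was found in 6.02% and the core of the photoreceptor factor CRX, TAATCC, in 6.25%. Each E-box counts as 2 matches to ACGTG. Among the members, Ldha had 5 matches to ACGTG at its first listed start, 4 of them in 2 E-boxes. Its second listed start had 1 CRX core and no ACGTG. Pgk1 had 2 matches to ACGTG, Pgam1 1, Pkm 1 at its second listed start, and Aldoa 1 at each of 2 starts. Gapdh, Eno1, Tpi1, Ldhb and Pfkl had none of the 3 motifs, as searched, at any listed start. The first Ldha stretch (chr7:46845554-46845803, plus strand) and that of Gapdh (chr6:125165774-125166023, minus strand), taken from the 5 members with none, are printed with the matches in capitals:
Ldha promoter: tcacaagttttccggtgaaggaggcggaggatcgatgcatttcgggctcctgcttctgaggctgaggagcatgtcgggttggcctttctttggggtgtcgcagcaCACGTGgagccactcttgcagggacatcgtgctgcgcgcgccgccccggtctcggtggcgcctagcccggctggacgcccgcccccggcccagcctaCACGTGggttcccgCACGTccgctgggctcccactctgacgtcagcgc
Gapdh promoter: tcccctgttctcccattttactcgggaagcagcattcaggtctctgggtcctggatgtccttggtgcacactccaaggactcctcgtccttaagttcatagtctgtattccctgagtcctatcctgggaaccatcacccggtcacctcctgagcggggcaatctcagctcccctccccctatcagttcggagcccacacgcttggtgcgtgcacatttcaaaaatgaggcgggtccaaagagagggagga
A match says only that the letters are there; binding was not measured.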

How the data were processed

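RNA of 8 rd10 retina libraries (4 sIVs, 4 PBS) was taken with TRIzol, poly(A)-selected and sequenced as strand-marked paired-end libraries, per the labels' protocols. The authors deposited raw counts per gene and FPKM with gene lengths. The build was mm10, per the submitters' processing notes; the aligner, the counter, its strand setting and its treatment of reads that match several genes are not stated anywhere in the labels. The deposited FPKM equalled counts per kilobase of gene length and per library total, times 1 constant per library (0.93 to 1.03). Of the gene IDs, 54409 were found in GENCODE M21, 53499 at the same coordinates. The columns named IV were matched to the libraries labelled sIVs by title.

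Genes were filtered with filterByExpr (17725 kept), scaled by TMM and tested with edgeR 4.0.16 (quasi-likelihood, group only, R 4.3.3), with Benjamini-Hochberg adjustment over all of them at 0.05. DESeq2 1.42.0 and limma 3.58.1 served as alternatives. Both count tests were tested on simulated counts for sIVs over PBS, drawn with the same dispersion for every gene and changed only in well-counted genes. Each called 50 of 50 genes at every simulated log2 change of -2, -1, 1 and 2. Of 17309 unchanged genes edgeR called 10 and DESeq2 22. The simulated sIVs libraries lacked the differences seen among the real ones, so the recovery does not give the power of the tests here. The biological coefficient of variation was 17.1%; for genes of few counts, such as Adm and Myc, counting error limits the precision as well. Fold changes run sIVs over PBS. A standard error is the absolute log2 fold change over the square root of the F statistic. No 2 libraries agreed within sampling noise (lowest chi-square per gene 3.44). Transcript windows were compared letter for letter on the sense strand. The members, lists and the rule on which genes to name (per list the 2 of smallest p and the 1 of highest CPM, fixed genes of each step, and the extremes of the reference genes) were chosen with earlier results of these data known.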

Additional observations from a re-analysis of the deposited data

Results flagged for a closer look

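Of 82 groups of 4 libraries examined for the genes named above, 6 held a library far from the others; chance gives such a gap in about 1 in 20 groups. Ldha was at 1271 CPM in PBS library 1, with the other PBS libraries at 1141 to 1151 CPM. Ldhb was at 166.4 CPM in sIVs library 4, with the other sIVs libraries at 140.8 to 144.5 CPM. Slc2a1 was at 386.3 CPM in sIVs library 5, with the others of its group at 246.1 to 257.1 CPM. Pfkm was at 176.2 CPM in PBS library 2, below the 193.7 to 195.7 CPM of the other PBS libraries. Myc was at 2.635 CPM in PBS library 1, where the other PBS libraries had 1.108 to 1.152 CPM. Gsk3b was at 277.9 CPM in PBS library 2, with the other PBS libraries at 254.5 to 256.7 CPM. Gapdh itself was not among them, since its high values were in 2 of 4 sIVs libraries and no library stood alone.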

How the results depend on the processing

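The fold changes of the 10 members, sIVs over PBS, were recomputed under 20 alternatives each. In 186 of 200 cases they moved by less than the gene's own spread between libraries within groups. For Gapdh that spread was wide, so 1.12 without sIVs library 5 and 1.25 by limma, against 2.09, counted as unmoved. Scaling by library totals shifted all genes by 0.08 log2 units, turned the split of the members to 6 positive and 4 negative, and gave log2 fold changes of 0.019 for Pgk1, 0.11 for Tpi1 and 0.026 for Pgam1. Leaving out sIVs libraries 3 and 4 gave 0.019 for Pkm, 0.13 for Ldha, -0.12 for Eno1 and 0.074 for Aldoa, also 6 positive and 4 negative, and 3 calls among all genes. Leaving out sIVs libraries 2 and 5, which was chosen after seeing the data, gave -0.21 for Gapdh, -0.42 for Pkm, -0.56 for Ldha, 0.16 for Eno1, -0.35 for Aldoa and -0.26 for Pfkl, 37 calls among the other genes of glucose metabolism and 5982 among all genes. Each of these 2 omissions keeps libraries that had been seen to differ, so their counts are descriptions of the libraries kept and not tests of the treatment. Calls among all genes, 0 by edgeR, became 152 with no filter on low counts and 536 with DESeq2; among the other genes of glucose metabolism they became 1, which was Myc, and 3. Leaving out each library in turn gave 0 to 1331 calls among all genes and 0 to 9 among those of glucose metabolism, the highest without sIVs library 2; the cause was not tested. Over the single omissions Gapdh ran from 1.12 to 2.43 and its ratio of highest to lowest library from 5.94 to 13, the lowest ratio without sIVs library 5. Both limma fits kept the sign of Gapdh, at 1.31 and 1.25. The other alternatives for the calls gave 0. The order of levels in PBS retina kept 2 or 3 overlapping neighbours; the alternative with transcript lengths was chosen after seeing the data.

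The labels do not say whether the replicate numbers pair the libraries. Deviations of same-numbered libraries correlated at -0.0612 to 0.0623 by the number in the title. By the number in the description they correlated at -0.0735 to 0.11. No values for differently numbered libraries stand beside these, so they do not decide the question. The fits were repeated with a replicate block by each number. The title block moved the log2 fold change of Gapdh to 0.65, the description block to 1.32; neither block gave a call among all genes or those of glucose metabolism.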
